A study of Mus musculus with 32 samples.

Results

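Tubulins are the building blocks of microtubules, and 10 of their genes were followed here by name: Tuba1a, Tuba1b, Tuba1c, Tuba4a and Tuba8 of the α family and Tubb2a, Tubb2b, Tubb3, Tubb4a and Tubb5 of the β family. They were chosen for their family and not for a measured value, though earlier results of these data were known at the time. The arrays held 15 of their probes among 41174 in all, and the members made up 9 of 27842 genes or single probes read, because Tuba1b had no probe of its own. RNA came from cells cut by laser out of the lumbar anterior horn of female mice, and was read on 32 Agilent mouse arrays that carry 2 dyes each. The SOD1-G93A mice (B6SJL-Tg(SOD1-G93A)1Gur), which carry a mutant human superoxide dismutase and model amyotrophic lateral sclerosis, were 8 weeks old, and their controls were nontransgenic B6SJL littermates. The TAU-P301L mice (B6D2F1-Tg(TAU-P301L)), which carry a mutant tau and model tauopathy, were 16 weeks old, and their controls were nontransgenic B6D2F1 littermates. Model, age and strain differ together and cannot be told apart. Which promoter drives either transgene is not given in the sources used here. From both models, motor neurons were taken by their shape after a Nissl stain, and the glia next to them were taken as a sample of their own. Each of the 4 comparisons of transgenic with control had 4 littermate pairs, and a pair took up 2 arrays of opposite dye order. Cells came from separate mice, pairs are the replicates, and p-values measure the spread between pairs.

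An α and a β tubulin fold into a dimer with the help of chaperones, and dimers join end to end into the wall of the microtubule. In motor neurons microtubules fill the long axon and are the tracks on which kinesin and dynein carry cargo, and in oligodendrocytes and astrocytes they reach into the processes. Tau, the protein mutated in TAU-P301L mice, binds along microtubules. The mammalian isotypes are very alike in the protein core and differ mostly in the acidic tail, where enzymes add or remove glutamates and a tyrosine.

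Sequence just ahead of the gene start is shown for 4 members: Tubb3, Tubb4a and Tuba4a, whose levels were higher in motor neurons, and Tubb2a, which had the smallest p in a comparison of transgenic with control. These 4 were chosen after their values were seen. The 150 bases before each start are from RefSeq on GRCm38.p6, read 5′ to 3′ on the strand of the gene. Capitals mark a GC box (GGGCGG, or CCGCCC for the other strand), a CCAAT box (CCAAT, or ATTGG for the other strand) and a TATA box (TATAAA).
Tubb3, chr8:123411403-123411552, + strand: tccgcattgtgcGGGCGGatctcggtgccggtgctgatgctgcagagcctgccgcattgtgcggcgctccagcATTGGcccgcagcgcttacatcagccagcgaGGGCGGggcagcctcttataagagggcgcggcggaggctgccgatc
Tubb4a, chr17:57087601-57087750, - strand: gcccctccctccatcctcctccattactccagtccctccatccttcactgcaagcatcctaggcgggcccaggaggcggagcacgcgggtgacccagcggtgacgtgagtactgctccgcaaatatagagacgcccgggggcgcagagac
Tuba4a, chr1:75219295-75219444, - strand: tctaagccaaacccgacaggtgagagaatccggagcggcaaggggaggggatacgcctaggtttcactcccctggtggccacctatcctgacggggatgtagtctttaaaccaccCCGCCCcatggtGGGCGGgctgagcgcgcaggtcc
Tubb2a, chr13:34078009-34078158, - strand: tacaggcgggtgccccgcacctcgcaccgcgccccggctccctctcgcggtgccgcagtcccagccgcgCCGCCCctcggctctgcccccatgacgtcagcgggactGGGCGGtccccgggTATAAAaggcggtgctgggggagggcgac

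The Tubb3 stretch held GC boxes that begin 138 and 46 bases before the start, with a CCAAT box in reverse at 77. The Tuba4a stretch held a GC box on each strand, at 35 and 23 bases. Tubb2a held GC boxes at 81 and 43 bases and a TATA box at 29. The Tubb4a stretch, with 64.7% G and C, held none of the 3 motifs, which says only that these letters are not there. Windows were found for 9 of the 10 members, all but Tubb2b. On either strand of the 250 bases before the start, 5 of the 9 held a GC box, 4 a CCAAT box and 1 a TATA box. Over 32851 mouse promoters the shares were 32.7%, 33.9% and 12.4%. No matches shown here overlap.

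The probes covered the members unevenly. Tuba4a and Tubb2a had 3 probes each, Tuba1c and Tubb5 had 2, and the other 5 measured genes had 1. Each gene was read from its brightest probe. For Tubb3, a β tubulin used as a marker of neurons, that was a probe at chr8:126307891-126307950 of mm8. For Tuba4a, an α tubulin known for its place in mature neurons, it was chr1:75098880-75098939, and for Tubb2a chr13:34081725-34081754. The second probe of Tuba1c (chr15:98862343-98862534) was named for Tuba1b in the older annotation of the motor neuron files and for Tuba1c in the newer one of the glia files. Its older accessions fit Tuba1a, Tuba1b and Tuba1c, so it cannot be given to 1 gene. Likewise the second Tubb2a probe (chr13:34082007-34082066) carried accessions of Tubb2a, Tubb2b, Tubb3 and Tubb6. No level is compared here between probes or genes. No member spot was saturated. Tuba1a, the brightest in signal, carried an outlier mark in SOD1-G93A motor neuron pair 4 and TAU-P301L motor neuron pair 3, and those pairs were left out of its fits.

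One littermate pair stood apart. The control extract of SOD1-G93A motor neuron pair 3 correlated at 0.719 over 9201 genes with the median of the other control motor neuron extracts, which reached 0.942 to 0.966. All 93 of the genes in the brightest percent were lower in it, with a median difference of -2.35 on the log2 scale. The summed signal of motor neuron markers was 12.7 there and 14.4 to 15.1 in the other control motor neuron extracts. Astrocyte markers (11.6 against 12.997 to 13.4) and oligodendrocyte markers (10.6 against 12.7 to 13.4) were lower in it as well. The transgenic extract of the same pair, read on the same arrays, was low too. Tuba1a was at 9.56 in it, against 12.96 to 12.97 in the other transgenic SOD1-G93A motor neuron extracts with a value. Tubb2a was at 8.55 against 11.4 to 11.7, and Tubb5 at 7.70 against 9.95 to 10.6. The share of probes well above background ran from 24.5% to 75.6% over the 16 pairs, with 47.4% in this one. The ratios of the dye-swapped arrays correlated below 0 in 6 of the 16 pairs. Values without this pair stand beside most of the counts and member differences it enters. Such doubted pairs were left out together in an alternative chosen after seeing the data.

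Tubulin levels differed between the control cell types. Tubb3, Tubb4a, Tuba4a and Tuba8 were higher in control motor neurons than in control glia, and Tubb2b, a β tubulin of developing neurons and of glia, was higher in control glia. These were 5 of 9 tested members past an adjusted p of 0.05, or 55.6% of them. Over all 13073 genes tested, 39.7% passed, 27.6% as higher in motor neurons and 12.1% as higher in glia. Levels are log2 intensities of a single channel, averaged over both arrays of a pair, with 8 control extracts per cell type and the colony as a covariate in limma. The median gene was itself 0.11 higher in motor neurons, and 0.21 higher with each channel scaled to its 75th percentile. That scaling gave 3905 genes higher in motor neurons and 768 higher in glia, against 3610 and 1578.

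Tubb3 gave the smallest p among the members. Its level ran from 8.13 to 8.89 in the 8 control motor neuron extracts, with a median of 8.56. In control glia it ran from 7.24 to 8.13, with a median of 7.85. Every motor neuron extract was above every glia extract, though the lowest of the first and the highest of the second met at 8.13. The difference was 0.78 ± 0.14 (SE, n = 8 and 8), or 1.71-fold, with an adjusted p of 0.00089 in limma. It was 0.99 among the SOD1-G93A littermates and 0.56 among the TAU-P301L littermates, and 0.74 without the pair that stood apart. SOD1-G93A littermates had the highest motor neuron levels, at 8.55 to 8.89, next to 8.13 to 8.57 in TAU-P301L littermates. Those ranges overlapped by 1 extract, and the glia of both littermate groups spanned much the same levels. The 8.89 came from SOD1-G93A pair 3, the pair that stood apart, and the other SOD1-G93A littermates reached 8.55 to 8.75.

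Tubb4a, a β tubulin best known from myelinating oligodendrocytes, was higher in the motor neuron captures. It lay between 6.30 and 6.69 there, with a median of 6.56, and between 5.85 and 6.45 in glia, with a median of 6.04. Of the 8 motor neuron extracts, 6 were above all glia. The difference was 0.46 ± 0.09 (SE), with an adjusted p of 0.002, and 0.49 without SOD1-G93A pair 3. Among SOD1-G93A littermates alone the adjusted p was 0.094. The probe was dim, and was well above background on 12 of 16 motor neuron arrays and 8 of 16 glia arrays in the control channel. Oligodendrocyte markers went the other way, with 6 of 12 tested higher in glia and 0 higher in motor neurons.

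Tuba4a ran from 7.79 to 9.53 in motor neurons, with a median of 8.81, and from 7.07 to 8.70 in glia, with a median of 7.87. The groups overlapped, since 3 of the 8 motor neuron extracts (SOD1-G93A pair 3 and TAU-P301L pairs 1 and 3) lay below the highest glia extract. The difference of 0.81 ± 0.26 (SE) had an adjusted p of 0.022 and became 0.96 with an adjusted p of 0.0047 without SOD1-G93A pair 3. Among SOD1-G93A littermates alone the adjusted p was 0.092, and among TAU-P301L littermates alone 0.23. Both dimmer Tuba4a probes also differed, by 0.41 (adjusted p = 0.00029) and 0.23 (adjusted p = 0.0037) in the fit of single probes. They qualified for testing through motor neurons, with 6 and 4 control extracts well above background there, against 1 and 1 in glia. They were well above background on only 7 and 4 of 16 control glia arrays. Their glia levels are thus close to background, and they are no separate support. Tuba8, an α tubulin with a divergent sequence, differed by 0.18 ± 0.05 (SE, adjusted p = 0.012), with levels of 6.02 to 6.19 in motor neurons and 5.80 to 6.08 in 7 glia extracts, the other being missing. It was well above background on 11 of 16 control motor neuron arrays and 1 of 16 glia arrays, so the glia level is close to background. The Tuba8 difference was again 0.18 without SOD1-G93A pair 3 (adjusted p = 0.016). It no longer passed with each channel scaled to its 75th percentile, at 0.11 (adjusted p = 0.28), or among SOD1-G93A (adjusted p = 0.11) or TAU-P301L littermates alone (adjusted p = 0.24). Taken above the median gene, the Tuba8 difference was 0.07, while Tubb3, Tubb4a and Tuba4a kept 0.67, 0.35 and 0.71.

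Tubb2b ran from 7.12 to 8.89 in motor neurons, with a median of 8.24, and from 7.86 to 9.67 in glia, with a median of 8.998. The groups overlapped in the glia of TAU-P301L littermates, and 2 of 8 motor neuron extracts were below all glia. The difference was -0.76 ± 0.27 (SE), with an adjusted p of 0.034, and -0.59 without SOD1-G93A motor neuron pair 3 (adjusted p = 0.046). It was -1.28 among SOD1-G93A littermates and -0.25 among TAU-P301L littermates, and this gap was not tested. The call was lost when any of SOD1-G93A motor neuron pair 4, SOD1-G93A glia pairs 1, 2 and 3, TAU-P301L motor neuron pairs 3 and 4 or TAU-P301L glia pair 1 was left out, with differences of -0.75 to -0.67 and adjusted p values of 0.0505 to 0.062. With each channel scaled to its 75th percentile it was -0.05, with an adjusted p of 0.93. Without all pairs whose swapped arrays correlated below 0 it was -0.35, with an adjusted p of 0.39.

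For Tuba1a, Tubb2a and Tubb5 the call changed with a single control extract. Tuba1a, a major α tubulin of growing neurons, was at 10.3 in the control extract of SOD1-G93A pair 3 and at 12.7 to 13.4 in the other 5 motor neuron extracts with a value, against 12.0 to 13.1 in glia. Tubb2a, a major β tubulin of brain, was at 9.13 there and at 10.8 to 11.8 in the other 7, against 10.6 to 11.3 in glia. Tubb5, a β tubulin found in most cell types, was at 8.24 there and at 9.76 to 10.6 in the others, against 8.56 to 10.1 in glia. With that extract in the fit the differences were -0.01, 0.12 and 0.30, with adjusted p values of 0.98, 0.76 and 0.40. Without it they were 0.47 (adjusted p = 0.042), 0.42 (adjusted p = 0.015) and 0.56 (adjusted p = 0.015), all higher in motor neurons, and all 3 genes still overlapped glia. Tubb5 also passed with that extract in the fit when each channel was scaled to its 75th percentile, at 1.12 (adjusted p = 0.047). Without the extract 7 members passed as higher in motor neurons and 1 as higher in glia, beside 34.9% and 11.7% of all genes, or 46.6% either way. Tuba1c, an α tubulin of many cell types, did not pass either way, at 0.54 ± 0.30 (SE, adjusted p = 0.16) and at 0.62 (adjusted p = 0.11), but passed with that scaling at 0.84 (adjusted p = 0.0499).

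**Figure D1:**
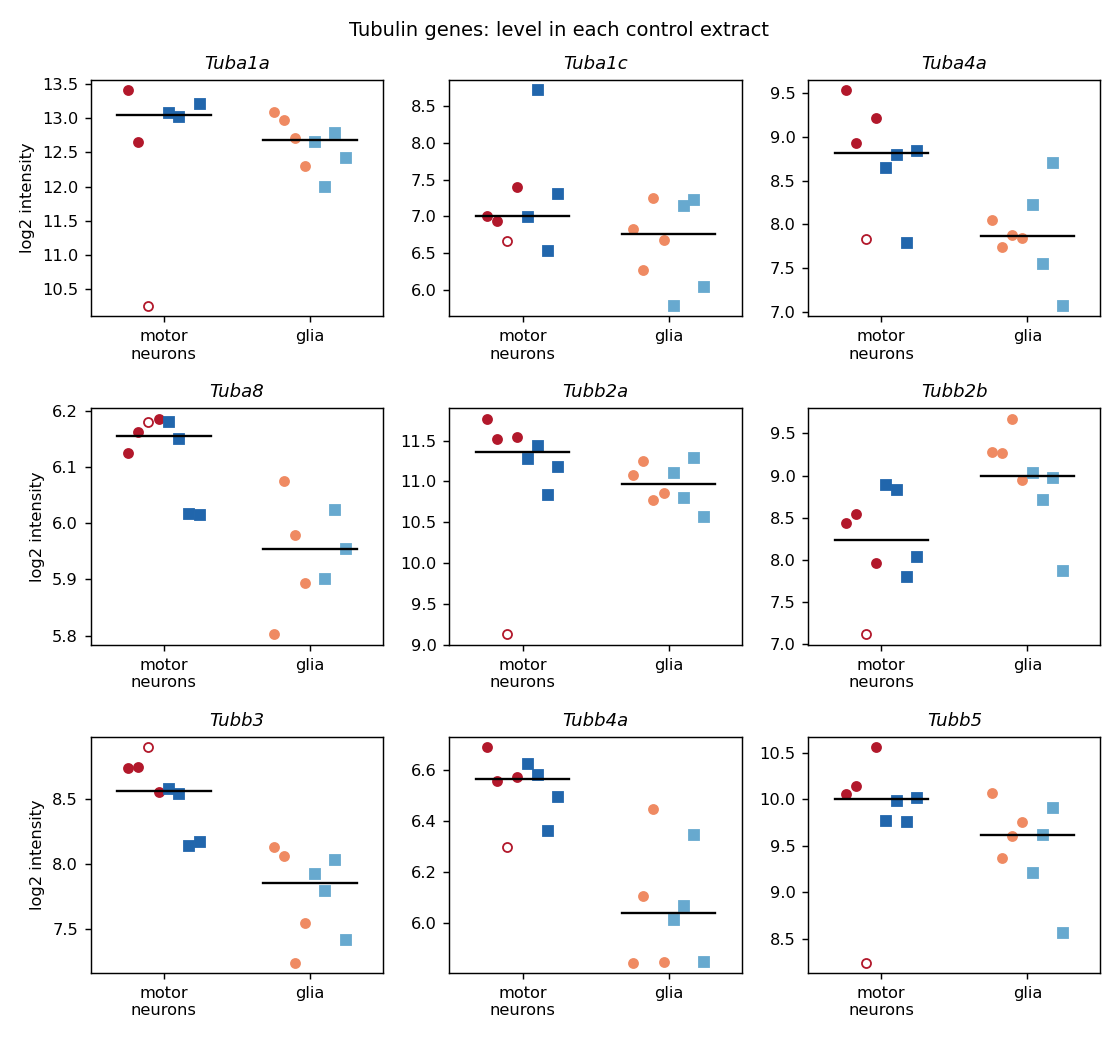
Log2 intensity of each tubulin gene, read from its brightest probe, in every control extract of motor neurons and glia. Circles are SOD1-G93A littermates, squares are TAU-P301L littermates, the open circle is SOD1-G93A motor neuron pair 3 and the bar is the median of the extracts. Every panel has its own axis, and the open circle is far below the rest for Tuba1a (10.3), Tubb2a (9.13) and Tubb5 (8.24).

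**Figure D2:**
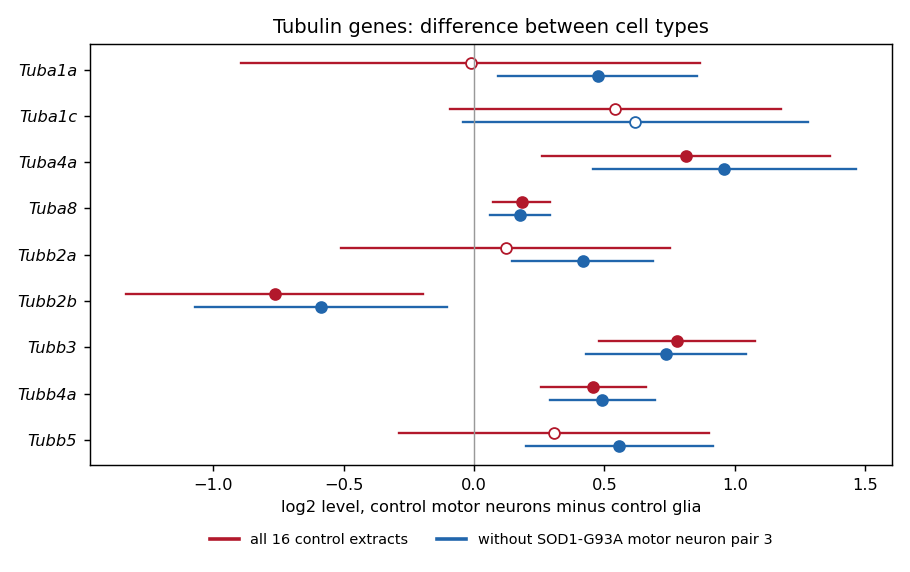
Difference in log2 level, control motor neurons minus control glia, for each tubulin gene with its 95% confidence interval, from all 16 control extracts (red) and without SOD1-G93A motor neuron pair 3 (blue). Filled symbols have an adjusted p under 0.05 in limma, and Tubb2b alone is below 0 among them.

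The captures were checked against markers of each cell type. Of 16 tested motor neuron markers, 8 were higher in control motor neurons, among them Nefm at 1.67 and Snap25 at 1.91, and 1 was higher in glia. Of 12 tested astrocyte markers, 6 were higher in glia, and so were 3 of 11 microglia markers and 3 of 8 endothelial and pericyte markers, of which 1 more was higher in motor neurons. Of 13 interneuron markers, 6 were higher in motor neurons. Markers of 1 type were also detected in the capture of the other. Of the motor neuron markers, 13 of 16 were well above background in at least 4 glia extracts, and 12 of 12 astrocyte markers were in at least 4 motor neuron extracts. Whether cells of the other type were captured was not tested. The summed astrocyte signal was 11.6 to 13.4 in motor neurons and 13.6 to 14.4 in glia. Motor neurons and glia lay in different scan batches and were read with different software versions, so cell type cannot be told apart from these. In captured tissue, fewer cells of a type and less RNA per cell cannot be told apart.

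Genes that make, modify or hold tubulin were taken from 6 lists, to be read against the 27.6% of all genes called as higher in motor neurons and the 12.1% called as higher in glia. Among the other tubulins, 3 of 6 stood higher in motor neurons: Tube1 (0.28), Tubb4b (0.34) and Tubg1 (0.33), the γ tubulin that seeds microtubules. Among the cofactors that assemble the tubulin dimer, 3 of 8 were higher in motor neurons and 0 were lower, with Tbcb at 0.78, Tbcc at 0.93 and Tbcd at 0.49. Of 13 genes for the chaperonin CCT and for prefoldin, which fold new tubulin, 7 had a higher level in motor neurons and 1 had a higher level in glia, with Cct7 at 0.87, Pfdn6 at 0.67, Cct6b at 0.52 and Tcp1 at 0.49. The median difference was 0.34 over this list and 0.11 over all genes.

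Other proteins act on finished microtubules. Of 16 enzymes that modify tubulin, 4 stood higher in motor neurons and 2 stood higher in glia, near the shares over all genes. Ttll7, which adds glutamates to tubulin tails, was higher in motor neurons by 0.69, and Agtpbp1, which removes them, by 0.83. Agbl2, of the same family as Agtpbp1, was higher in glia, at -0.93. Of 9 severing and depolymerising genes, 5 passed as higher in motor neurons and 1 as lower. Stmn3 and Stmn4 are stathmins, which bind tubulin dimers, and they differed in opposite directions, by 1.23 ± 0.28 and -2.03 ± 0.34 (SE). The depolymerising kinesin Kif2a was higher in motor neurons by 0.62 and the katanin subunit Katna1 by 0.31. Of 14 genes for plus ends, minus ends and nucleation, 4 passed as higher in motor neurons and 2 as lower, again near the shares over all genes. Camsap2, which caps minus ends, was at -1.96 ± 0.36 (SE), and the plus end proteins Clip1 and Clasp1 were at 0.29 and 0.56. Without SOD1-G93A motor neuron pair 3 the counts higher in motor neurons over the 6 lists were 4, 3, 9, 6, 7 and 6, and those higher in glia were 0, 0, 1, 3, 1 and 2, beside 34.9% and 11.7% of all genes. The list genes named here kept their direction and stayed past the threshold without it.

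In SOD1-G93A motor neurons no tubulin gene passed the test against littermate controls. Of 9 tested members, 0 were called, beside 0.0075% of the 13333 genes tested (1 gene), and 1400 genes had an unadjusted p under 0.05, of which 0 were members. The mean log2 ratio of transgenic over control was below 0 for 7 members and above 0 for 2, with a median of -0.17, while 50.02% of all genes were above 0. Without pair 3 it was below 0 for 6 members, with a median of -0.06 and a lowest adjusted p of 0.61. Tuba4a had the widest shift, with pair values of -0.86, 0.32, -0.39 and -0.67. Pair 2 went against the other 3, and the mean of -0.40 ± 0.52 (SD, n = 4) had an adjusted p of 0.50 in limma, with a mean of -0.40 without pair 3 too. Tubb3 was below 0 in all 4 pairs, at -0.017, -0.20, -0.24 and -0.24. Pair 1 averages dye-swapped arrays at 0.025 and -0.059, and pair 3 averages arrays at 0.18 and -0.65. Tubb3 thus had the same sign on both arrays in only 2 of these pairs. Its mean was -0.17 ± 0.11 (SD), with an adjusted p of 0.65, and 7.84% of all tested genes were below 0 in all 4 pairs. Tuba1a had values of -0.44, 0.30 and -0.70 in the 3 pairs measured. Tubb2a (-0.35, 0.01, -0.57 and 0.12) and Tubb5 (-0.10, -0.10, -0.55 and 0.09) were lowest in pair 3, and Tubb2b (0.59, 0.26, -0.02 and -0.23) was the only member with a mean over 0.1. The Tubb5 ratio followed the dye, with the same sign on both dye-swapped arrays in 0 of the pairs. It was 0.15, 0.16, 0.03 and 0.25 with the transgenic extract in Cy3, and -0.36, -0.36, -1.13 and -0.07 with it in Cy5. Without pair 3 the means were -0.07 for Tuba1a, -0.07 for Tubb2a, -0.04 for Tubb5, -0.15 for Tubb3 and 0.21 for Tubb2b. The mean over the 17 tested motor neuron markers was -0.13, with pairs from -0.35 to 0.05, and oligodendrocyte markers were above 0 for 13 of 13, with a mean of 0.12, and for 11 of 13 without pair 3. Their part in the tubulin ratios was not tested.

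In SOD1-G93A glia 0 of 8 tested members passed, beside 0.0956% of 10456 genes (10 genes), and 1696 genes but 0 members had an unadjusted p under 0.05. Of the members, 4 had a mean above 0 and 4 below, with a median of -0.01, while 57.5% of all genes were above 0. All 8 were above 0 when arrays were centred on the median in place of loess, which also moved the median of all genes from 0.02 to 0.065. Tuba1a was below 0 in all 4 pairs, at -0.15, -0.04, -0.23 and -0.14, with a mean of -0.14 ± 0.08 (SD) and an adjusted p of 0.74. On single arrays it had the same sign on both dye-swapped arrays in 0 of these pairs. Tubb3 was split, at -0.25, -0.34, 0.46 and 0.16, and Tuba4a ranged from -0.98 in pair 4 to 0.52 in pair 3. For these genes the pairs disagreed in sign, and the 95% confidence interval was -0.28 to 0.30 for Tubb3 and -0.54 to 0.33 for Tuba4a.

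In TAU-P301L motor neurons all 8 tested members had a mean above 0 and 0 passed, beside 0% of 11679 genes. The unadjusted p was under 0.05 for 493 genes and for 0 members. The median was 0.18 over the members and -0.01 over all genes, of which 46.5% were above 0. All 8 also stood above 0 with the processed signals of the scanner software, with median centring and in the deposited value table. Without pair 1 or without pair 3, 6 of 8 did. Leaving out all pairs whose swapped arrays correlated below 0 removes only pair 3 here, so it is no further check. Tuba4a alone was above 0 in every pair, at 0.53, 0.11, 0.26 and 0.56. Its mean was 0.36 ± 0.22 (SD, n = 4), with an adjusted p of 0.995, and 6.54% of all genes were above 0 in all 4 pairs. Tubb3 (0.09, 0.26, -0.27 and 0.60) and Tubb2a (0.28, 0.11, -0.04 and 0.37) were above 0 in 3 pairs, with pair 3 the exception for both. Tubb5 had 0.73 in pair 1 and -0.17 to 0.11 in the others, with the same sign on both dye-swapped arrays in 1 of the 4 pairs. Pair 1 held the highest mean over the members, at 0.70. Tuba1c had the highest single value, 2.83 in pair 1, with -0.84, 0.03 and -0.36 in the others. The dye-swapped arrays of that pair gave 2.60 and 3.06. The second Tuba1c probe was at -0.10 in pair 1, so the high value rests on 1 probe in 1 pair. That second probe cannot be given to 1 gene and was well above background in only 5 of 8 extracts here, so it is a weak check. Motor neuron markers had a mean of 0.11, with pairs from -0.17 to 0.25, and the 2 red cell markers had a mean of -0.79. Their part was not tested.

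In TAU-P301L glia 0 of 8 members passed, beside 0% of 8912 genes, while 1224 genes had an unadjusted p under 0.05, among them 1 member. Tubb2a was that member, with pair values of 0.60, 0.54, -0.08 and 0.36. Pair 3 was the exception in sign, and the mean of 0.35 ± 0.31 (SD, n = 4), or 1.28-fold, had a p of 0.0099 and an adjusted p of 0.25 in limma. The highest value, in pair 1, averages dye-swapped arrays at -0.07 and 1.27. Over all tested probes the ratios of these arrays correlated at -0.749. The second Tubb2a probe, shared with other β tubulins, gave 0.32, 0.68, -0.33 and 0.50. Tubb5 followed with 0.67, 0.30, -0.27 and 0.60, and a mean of 0.33 ± 0.43 (SD, adjusted p = 0.36). Over the 4 pairs, the same pair 3 was thus lowest for both genes. Tuba1c ranged from -0.55 to 1.12 and Tubb2b from -0.42 to 0.22. Of the 8 members, 6 had a mean above 0, with a median of 0.07, while 51.2% of all genes were above 0, with a median of 0.003. The member count was 4 of 8 without pair 2 or without pair 4. The mean over astrocyte markers was -0.21, with pairs from -0.31 to -0.11, and that over motor neuron markers was 0.22, with pairs from -0.03 to 0.41. Their part in the tubulin values was not tested.

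**Figure D3:**
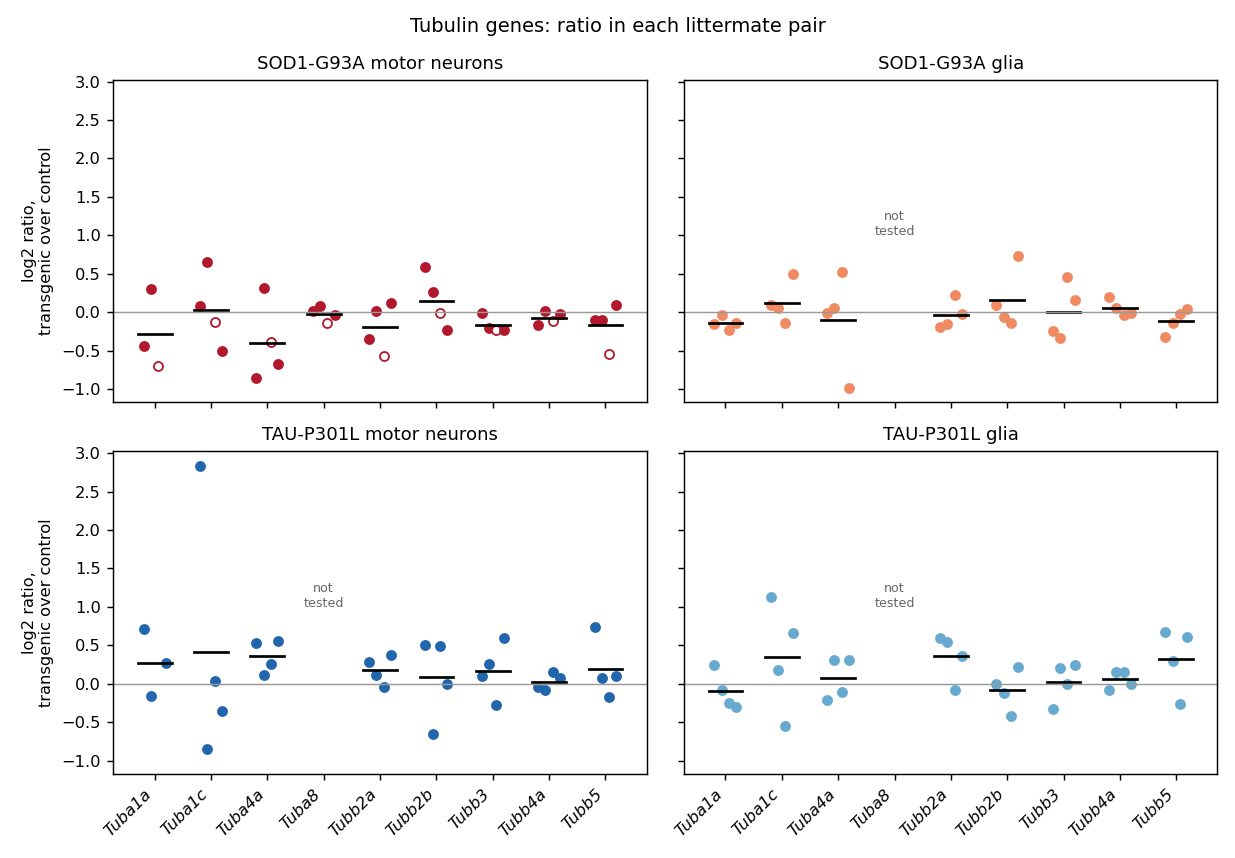
Log2 ratio of transgenic over control for each tubulin gene in each littermate pair of the 4 comparisons, with a bar at the mean over pairs. The open circles are SOD1-G93A motor neuron pair 3, and Tuba8 was tested in SOD1-G93A motor neurons only. The highest point is Tuba1c in TAU-P301L motor neuron pair 1 at 2.83.

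The effect of the transgene was compared between models and between cell types in the same fit. Between SOD1-G93A and TAU-P301L motor neurons, 0 of 9 members passed, beside 0% of 13662 genes, and 3 members were among the 1379 genes with an unadjusted p under 0.05. Tuba4a differed by -0.77 ± 0.29 (SE), from means of -0.40 and 0.36, with a p of 0.019, an adjusted p of 0.44 and a 95% confidence interval of -1.38 to -0.15. Of the 4 SOD1-G93A pairs, 3 were below every TAU-P301L pair, and SOD1-G93A pair 2, at 0.32, lay among the TAU-P301L pairs. Within scan batches the Tuba4a difference was -0.94 in the first and -0.59 in the second, each with 2 pairs of both models. Tuba1a differed by -0.55 (adjusted p = 0.49) and Tubb2a by -0.38 (adjusted p = 0.48). Without SOD1-G93A pair 3 these were -0.34 (adjusted p = 0.66) and -0.25 (adjusted p = 0.61). Over the 9 members the median was -0.35, and 7 were below 0, while the median over all genes was 0.00. Without SOD1-G93A pair 3 the median was -0.25, 7 members were still below 0, and Tuba4a stood alone with an unadjusted p under 0.05, at an adjusted p of 0.44.

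Probes of a gene did not always tell the same story. The other 2 Tuba4a probes gave differences between the models of -0.16 and -0.01 in motor neurons, both dimmer than the first. The second Tubb5 probe gave -0.50 (adjusted p = 0.42) where the first gave -0.35 (adjusted p = 0.57) in the fit of single probes, and it was above 0 in all 4 TAU-P301L motor neuron pairs, at 0.61, 0.15, 0.58 and 0.02. The second Tubb2a probe gave -0.37, close to the -0.38 of the first, and was also above 0 in all 4 TAU-P301L motor neuron pairs, at 0.38, 0.32, 0.060 and 0.21.

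**Figure D4:**
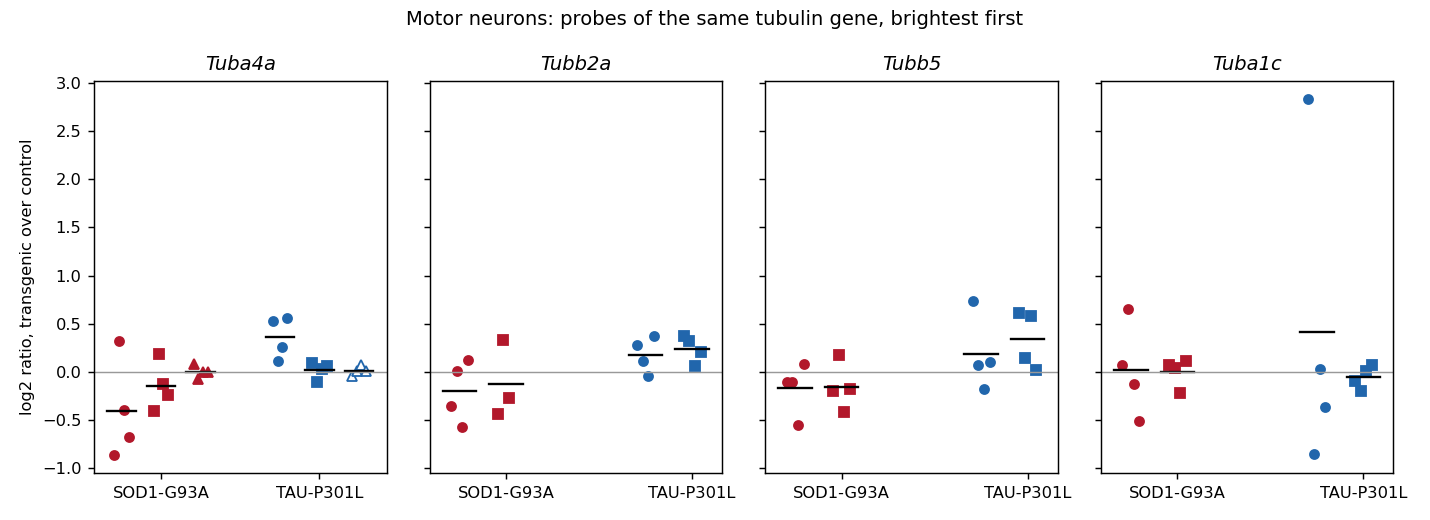
Log2 ratio in each motor neuron pair for the 4 tubulin genes with more than 1 usable probe, with the brightest probe first (circles, then squares, then triangles) and a bar at the mean. SOD1-G93A pairs are red, TAU-P301L pairs are blue, and open symbols mark a probe not tested there because it was too dim. The brightest Tuba4a probe spreads from -0.86 to 0.56, while its dimmest stays near 0.

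Between SOD1-G93A and TAU-P301L glia 0 of 8 members passed, beside 0% of 10942 genes, and 1 member was among the 681 genes with an unadjusted p under 0.05. Tubb2a differed by -0.39 ± 0.17 (SE), with an adjusted p of 0.73, and Tubb5 by -0.43 ± 0.21 (SE), with an adjusted p of 0.82. Between SOD1-G93A motor neurons and glia 0 of 9 members passed, beside 0% of 14010 genes, and 0 members but 1811 genes had an unadjusted p under 0.05. All 9 differences were below 0, from -0.30 to -0.0044, but 4 of 9 were above 0 without motor neuron pair 3, and 39.6% of all genes were above 0. Between TAU-P301L motor neurons and glia 0 of 8 passed, beside 0% of 12188 genes, and 0 members but 615 genes had an unadjusted p under 0.05, with 5 members above 0. Tuba1a had the largest difference there, 0.37 ± 0.23 (SE), with a 95% confidence interval of -0.14 to 0.88.

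No gene of the 6 lists passed in any of the 4 comparisons of transgenic with control or their 4 differences. An unadjusted p under 0.05 was reached by 10 of 67 tested genes of these lists in SOD1-G93A motor neurons, 9 of 52 in the glia of that model, 2 of 63 in TAU-P301L motor neurons and 11 of 45 in TAU-P301L glia, beside 10.5%, 16.2%, 4.22% and 13.7% of all genes. In SOD1-G93A motor neurons all 9 severing and depolymerising genes had a mean below 0, with a median of -0.09, and 8 of 9 did without pair 3. Stmn2, a stathmin of axons, was at -0.44 ± 0.40 (SD, adjusted p = 0.47) there and at 0.30 ± 0.36 (SD, adjusted p = 0.995) in TAU-P301L motor neurons. Without pair 3 Stmn2 was at -0.55 (adjusted p = 0.47) in SOD1-G93A motor neurons. Of the CCT and prefoldin genes, 10 of 13 were below 0 in SOD1-G93A motor neurons, 9 of 13 without pair 3, and 8 of 9 above 0 in TAU-P301L glia. Over all genes, 50.02% were above 0 in SOD1-G93A motor neurons and 51.2% in TAU-P301L glia. Prefoldin subunit Pfdn5 was at -0.47 ± 0.25 (SD, adjusted p = 0.087) in SOD1-G93A glia and at -0.31 ± 0.35 (SD, adjusted p = 0.26) in TAU-P301L glia. Glutamate-adding enzyme Ttll5 was at -0.35 ± 0.26 (SD, adjusted p = 0.088) and -0.36 ± 0.19 (SD, adjusted p = 0.18) in the same 2 comparisons. The minus end gene Camsap1 was at 0.45 ± 0.36 (SD, adjusted p = 0.087) in SOD1-G93A glia, and Arl2, a small GTPase that works with the cofactors, was at -0.39 ± 0.14 (SD, adjusted p = 0.18).

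The mean over the 8 members tested in every comparison varied from -0.34 in SOD1-G93A motor neuron pair 3 to 0.70 in TAU-P301L motor neuron pair 1. In SOD1-G93A mice it averaged -0.14 ± 0.21 for motor neurons and -0.0062 ± 0.075 for glia, and in TAU-P301L mice 0.21 ± 0.36 for motor neurons and 0.13 ± 0.22 for glia (SD over 4 pairs). These ranges overlap. The 0.70 includes the Tuba1c value of 2.83, which rests on a single probe in that pair. Tuba1a had no value in SOD1-G93A motor neuron pair 4 and TAU-P301L motor neuron pair 3, so the means there leave it out. The mean over members was not recomputed without Tuba1c, so its averages and the ranking that follows carry this limit. Among 5079 other named genes tested in all 4 comparisons, those whose 16 pair ratios followed this mean most closely were Panx1, a membrane channel, with a Pearson correlation of 0.887, Cyb5r3, a reductase of cytochrome b5 (0.842), Mcts1 (0.840), Emb (0.814) and the transcription factor Jun (0.812). These are the top of a ranking over pairs that share arrays and depth within each pair, and are given as a description. Both dye-swapped arrays of a pair gave a member the same sign in 20 of 35 member values of SOD1-G93A motor neurons and 14 of 32 of the glia, and in 23 of 31 of TAU-P301L motor neurons and 19 of 32 of the glia.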

How the data were processed

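The authors deposited scanner files that give each spot's linear intensity and log10 ratio, made with Agilent Feature Extraction per the file headers: version 8.5.1.1 for motor neurons (also in the submitters' processing notes) and 9.5.1.1 for glia. Their value table holds log10 ratios of transgenic over control, with a median of 0 in all 32 columns and 0 columns without a sample. In R 4.3.3 with limma 3.58.1, deposited intensity was corrected by normexp (offset 50) and loess, turned to transgenic over control and averaged over both arrays of a pair. Genes well above background in at least 4 of 8 extracts were tested over 16 pairs in 1 limma fit, two-sided, with Benjamini-Hochberg adjustment over all tested genes. Control levels are log2 intensity after Aquantile. Probe names came from the files and a RefSeq table (8148 probes unmatched). The number of arrays limits precision. Members, lists and the naming rule (all members, up to 4 passing genes per list or else 2, up to 3 markers per list, the 5 closest profiles) were chosen with earlier results of these data known, and some lists come from an earlier analysis of them. The alternatives are given in the closing section. The spread prior was taken over all genes on the array. The fits were tested on simulated data.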

Additional observations from a re-analysis of the deposited data

Results flagged for a closer look

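Some extracts stood far from the rest of their group in a member's value. In control motor neurons SOD1-G93A pair 3 was the lowest for Tuba1a at 10.3, Tubb2a at 9.13, and Tubb5 at 8.24 and 8.23 by its 2 probes. The control extract of TAU-P301L motor neuron pair 2 was the highest for Tuba1c, at 8.71. Among the ratios, SOD1-G93A motor neuron pair 1 was apart for Tubb3, at -0.017 where the other pairs lay near -0.2. SOD1-G93A glia pair 4 was apart for the second Tuba1c probe, at 0.18. In all, 7 of 72 groups of values held such an extract or pair, and chance alone marks about 1 in 20 groups. The groups share extracts, and some genes enter by more than 1 probe, so they are not independent and these shares cannot be weighed against each other. No member had all pairs of 1 comparison above 0 and all pairs of another below 0, in 45 such comparisons.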

How the results depend on the processing

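No member was called in a comparison of transgenic with control, or in a difference between them, under any alternative run, and the all-gene count ranged over 0 to 5 (SOD1-G93A motor neurons), 0 to 13 (SOD1-G93A glia), 0 to 14 (TAU-P301L motor neurons) and 0 to 5 (TAU-P301L glia). In the control levels Tubb3 was called in all 26 alternatives and Tubb4a in 25, while Tuba4a was called in 24, Tuba8 in 22 and Tubb2b in 15. The number of members called was 5, and became 3 with a replicate block, 2 with only SOD1-G93A littermates, 3 with only TAU-P301L littermates and 4 to 8 with 1 extract left out, 8 being without SOD1-G93A motor neuron pair 3. Over all 13073 genes tested the count was 5188, and in the same settings it became 4850, 1039, 2905 and 4424 to 6088. The sign of Tuba1a turned in 3 alternatives that called it: 0.64 with only TAU-P301L littermates, 0.73 without pairs whose swapped arrays correlated below 0 (chosen after seeing the data) and 0.47 without SOD1-G93A motor neuron pair 3, the highest of -0.22 to 0.47 with 1 extract left out. It also turned in others that did not call Tuba1a, and the difference ran from -0.66 to 1.14 over the 26 alternatives. The cause was not tested. The median level difference over members, 0.30, was 0.95 with 75th percentile scaling, which also called Tuba1c (0.84) and Tubb5 (1.12), and 0.76 with processed signals. For SOD1-G93A motor neurons minus glia the median, -0.13, was -0.21 with processed signals, -0.52 with median centring and -0.17 to -0.036 with 1 pair left out, the second without motor neuron pair 3. For SOD1-G93A glia it was -0.01, then 0.21 with median centring, 0.042 in the deposited value table, 0.057 without the doubted pairs and -0.12 to 0.027 with 1 pair left out. For TAU-P301L glia it was 0.07, then 0.33 with median centring and 0.27 without the doubted pairs. Replicate numbers were not taken as pairing the samples, since the correlation of same-numbered deviations was not above 0.1 for every number: it was for 2 of 4, 2 of 4 (ratios), 2 of 4 and 3 of 4 numbers (levels). With the replicate block Tuba8 had an adjusted p of 0.0504 and Tubb2b of 0.0518, and 0 members were called in the differences of ratios. Scan batch as a fixed block, added after the data were seen, called 0 members.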
